A study of Mus musculus with 10 samples.

Results

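The genes described here are the 4 opioid precursor genes, Penk, Pdyn, Pomc and Pnoc, and the 4 genes of the opioid receptor family, Oprm1, Oprd1, Oprk1 and Oprl1. They were chosen by symbol, and all 8 were found among the 32531 gene symbols counted. The libraries come from the whole striatum of adult Drd2-TRAP CP101 mice. A transgene under control of the dopamine D2 receptor gene puts EGFP on their ribosomal protein L10a. Tagged polysomes were pulled down with anti-EGFP antibodies after intravenous self-administration of cocaine or saline in short sessions. There were 5 immunopurified (IP) libraries after cocaine (numbers 1 to 5), 3 IP libraries after saline (numbers 1, 2 and 4), 1 library of unbound RNA after cocaine and 1 library of input RNA after saline. All mice carried the transgene. The tag is directed to striatal cells that use the D2 receptor gene, mainly indirect-pathway medium spiny neurons (MSNs) but also cholinergic interneurons. The labels do not say whether the libraries of a group came from separate animals or pools, so the spread behind each p-value is that of the libraries and may be technical.

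Opioid peptides are cut from larger precursors by proteases that act at paired basic residues, and they act on receptors coupled to inhibitory G proteins. Penk gives the enkephalins, which bind mainly delta and mu receptors, Pdyn gives the dynorphins, which prefer the kappa receptor, Pomc gives beta-endorphin, and Pnoc gives nociceptin, the ligand of the receptor encoded by Oprl1. In the striatum Penk is a classical mark of indirect-pathway MSNs and Pdyn of direct-pathway MSNs. Oprm1, Oprd1 and Oprk1 encode the mu, delta and kappa receptors.

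The shared opioid core is shown because it is what makes these precursors one family and sets Pnoc apart. In each line the 15 capitals are the 5 codons of the core (tyrosine or phenylalanine, glycine, glycine, phenylalanine and the residue that follows), with 6 flanking bases on each side that hold the neighbouring codons.
Penk site 1: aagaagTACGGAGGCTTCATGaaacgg
Penk site 6: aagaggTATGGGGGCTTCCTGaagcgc
Pdyn site 2: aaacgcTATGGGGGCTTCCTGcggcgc
Pomc site 1: aagcgtTACGGTGGCTTCATGacctcc
Pnoc site 1: aaaaggTTTGGGGGCTTCACCggggcc
On GRCm38 these lie at chr4:4134328-4134354 and chr4:4133935-4133961 on the minus strand (Penk), chr2:129688124-129688150 on the minus strand (Pdyn), chr12:3960367-3960393 on the plus strand (Pomc) and chr14:65404872-65404898 on the minus strand (Pnoc), all within coding exons of GENCODE M21. A search of the coding sequences found 7 such cores in Penk, of which 6 end in methionine and 1 in leucine. Pdyn held 3, all ending in leucine, and Pomc held 1, ending in methionine. Pnoc held 1, which starts with phenylalanine and ends in threonine. All 12 cores followed 2 codons for basic residues.

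The gene models lie at chr4:4133531-4138819 (Penk, minus strand), chr2:129686565-129699844 (Pdyn, minus strand), chr12:3954951-3960642 (Pomc, plus strand) and chr14:65400673-65425472 (Pnoc, minus strand). Those of the receptors lie at chr10:6758506-7038198 (Oprm1, plus strand), chr4:132110726-132144486 (Oprd1, minus strand), chr1:5588466-5606131 (Oprk1, plus strand) and chr2:181715016-181720985 (Oprl1, plus strand). Penk overlaps A830012C17Rik, and Oprm1 overlaps Gm10945 and Ipcef1, in each case on the other strand. These overlaps are of whole gene spans, and overlap of exons was not checked. Whether the counting used strand is not given in the sources used here, so how reads in the shared stretches were counted is not known. The coding sequences of the 4 receptors were 53.9% to 63.3% identical in pairwise alignments.

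Gene reads came to between 22975667 and 31631137 per IP library, 20882691 in unbound RNA and 18408782 in input RNA. The floor used here, 3 reads, equals 0.0948 to 0.131 CPM (a gene's reads scaled to a common library total) in the IP libraries, 0.144 CPM in unbound and 0.163 CPM in input RNA. Of 5 indirect-pathway MSN markers, all 5 passed 2-fold upward in every IP library, against unbound and against input RNA. Of 6 direct-pathway markers, 5 were more than 2-fold lower than in unbound RNA and 6 were lower than in input RNA. Libraries cocaine IP 1 and saline IP 1 stood slightly apart, with a median correlation with the other IP libraries of 0.974 and 0.973, against 0.982 to 0.988 for the rest. Together the 8 opioid genes took 0.407% to 0.895% of gene reads in cocaine IP libraries, 0.470% to 0.808% in saline IP libraries, 0.0891% in unbound and 0.128% in input RNA, nearly all of it Penk.

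Penk had 3986, 8626, 8772, 6827 and 8821 CPM in cocaine IP 1 to 5 and 4591, 7964 and 6774 CPM in saline IP 1, 2 and 4, against 742 CPM in unbound and 1106 CPM in input RNA. Every IP library was above both of the other fractions, and the libraries numbered 1 were the lowest of their groups. Pdyn had 7.47, 3.76, 5.98, 8.24 and 10.6 CPM in cocaine IP 1 to 5 and 8.55, 2.28 and 8.22 CPM in saline IP 1, 2 and 4, against 67.9 CPM in unbound and 89.2 CPM in input RNA. Every IP library was far below both of the other fractions, and the libraries numbered 2 were the lowest of their groups. Pomc stayed near 1 CPM throughout, with 1.11, 0.574, 1.04, 0.586 and 0.783 CPM in cocaine IP 1 to 5 and 0.960, 1.5 and 1.64 CPM in saline IP 1, 2 and 4, against 1.01 CPM in unbound and 2.06 CPM in input RNA. Pnoc had 1, 0, 0, 1 and 2 reads in cocaine IP 1 to 5 and 2, 2 and 5 reads in saline IP 1, 2 and 4, against 10 reads in unbound and 21 reads in input RNA. It was thus at or under the floor in every IP library other than saline IP 4.

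Among the receptors, Oprd1 had 37.6, 62.5, 73.4, 53.1 and 66.8 CPM in cocaine IP 1 to 5 and 53.7, 57.7 and 44.3 CPM in saline IP 1, 2 and 4, against 25.8 CPM in unbound and 22.3 CPM in input RNA. It was the one receptor gene above both of the other fractions in every IP library. Oprk1 had 23.6, 36.0, 42.8, 38.7 and 35.1 CPM in cocaine IP 1 to 5 and 31.8, 32.5 and 31.0 CPM in saline IP 1, 2 and 4, against 36.2 CPM in unbound and 39.7 CPM in input RNA. Oprm1 had 6.65, 8.71, 9.04, 9.53 and 5.92 CPM in cocaine IP 1 to 5 and 7.49, 7.70 and 6.32 CPM in saline IP 1, 2 and 4, against 7.57 CPM in unbound and 11.3 CPM in input RNA. Oprl1 had 6.17, 7.42, 8.69, 11.5 and 8.05 CPM in cocaine IP 1 to 5 and 8.10, 10.7 and 10.6 CPM in saline IP 1, 2 and 4, against 10.01 CPM in unbound and 11.8 CPM in input RNA. For these 3 receptors, on plain CPM, the cocaine IP libraries spanned the unbound value, while the saline IP libraries were all below the input value. With the scaling used for the ratios below, Oprl1 was slightly above input RNA in saline IP 2 and 4 (log2 ratios of 0.09 and 0.08).

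**Figure D1:**
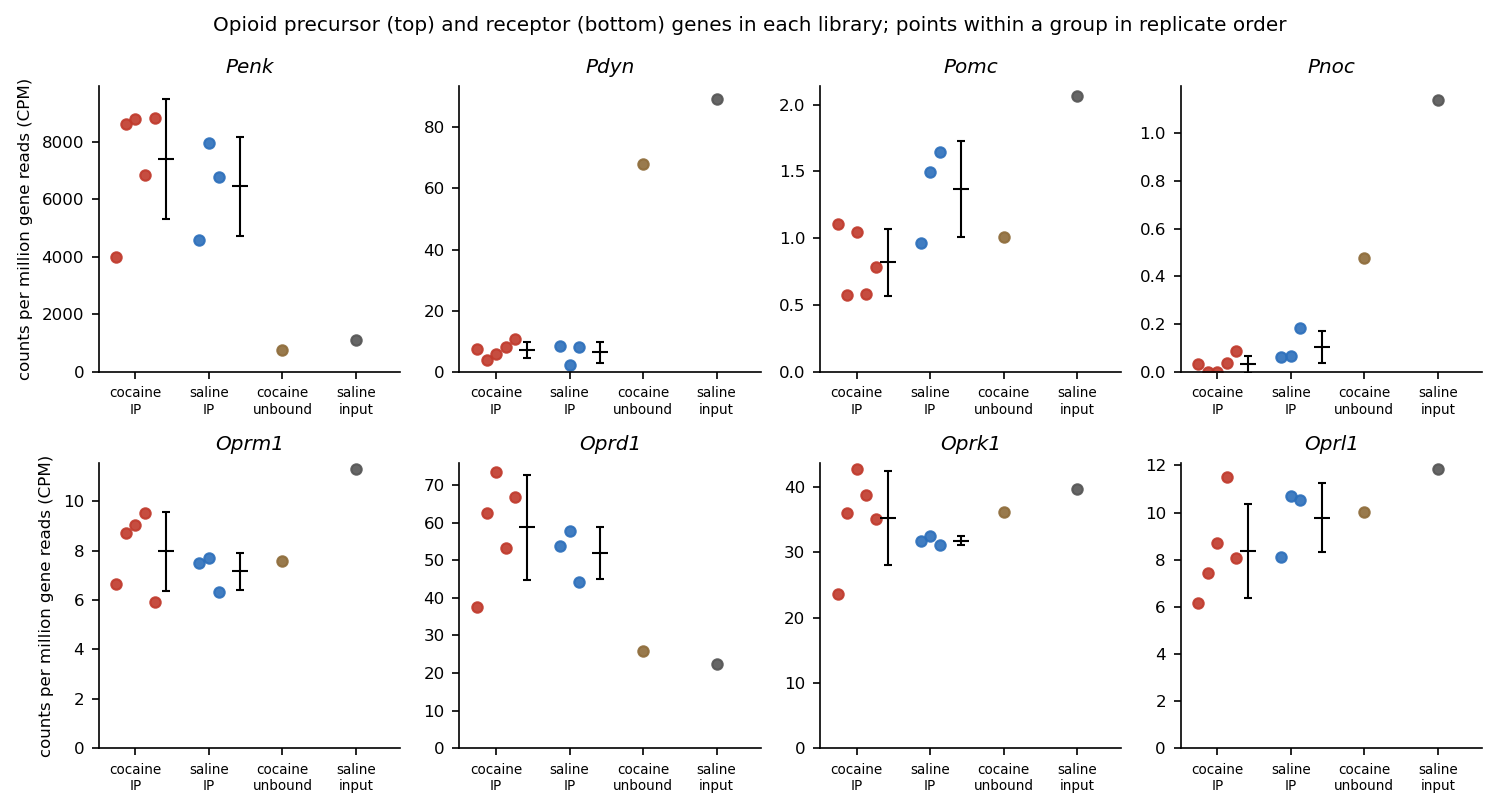
CPM (linear axes from 0) of each opioid gene in every library, by group, with mean and SD (black) for the 5 cocaine IP and 3 saline IP libraries and single points for unbound and input RNA. Penk and Oprd1 are higher in every IP library than in unbound or input RNA, Pdyn is lower in every one, and the cocaine IP and saline IP points of each gene overlap.

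The pull-down separated the 2 striatal precursors and, among the receptors, set Oprd1 apart. In cocaine IP libraries against unbound RNA, Penk was 3.45 ± 0.51 higher on the log2 scale (mean ± SD, n = 5 IP libraries against 1), the highest mean ratio of 12643 genes. Pdyn was lower by a log2 ratio of -2.94 ± 0.47. Oprd1 had 1.31 ± 0.39 and passed 2-fold in 4 of 5 libraries, with 0.68 in cocaine IP 1. Oprm1 had 0.22 ± 0.29, Oprk1 0.13 ± 0.34 and Oprl1 -0.08 ± 0.31, so that these 3 spanned 0 across libraries. Ratios are of CPM after trimmed mean of M values (TMM) scaling, plus 1, and a gene was called when every IP library passed 2-fold. By that rule 1 of 6 measured members was called higher, against 3.78% of all genes, and 1 was called lower, against 9.74%. Pomc and Pnoc were under the minimum mean of 1 CPM. Without cocaine IP 1, Oprd1 had 1.47 ± 0.19 and was called as well. An edgeR fit over all 10 libraries, in which the lone unbound library is assumed to vary like the IP libraries, gave adjusted p = 0.000427 for Penk, 0.000473 for Pdyn, 0.00739 for Oprd1 and 0.0262 for Pnoc, so that 2 of 8 members were higher and 2 lower, while 17.6% of all genes were higher and 23.8% lower. In bulk RNA such as this, fewer cells of a type and less RNA per cell cannot be told apart.

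In saline IP libraries against input RNA, Penk and Oprd1 were again higher and Pdyn lower. Penk had a log2 ratio of 2.74 ± 0.44 (mean ± SD, n = 3 IP libraries against 1), rank 5 of 12902 genes, and Oprd1 had 1.40 ± 0.18, rank 72. Pdyn had -3.55 ± 0.87, or 11.7-fold lower. Oprl1 had -0.05 ± 0.23, Oprk1 -0.09 ± 0.04, Pomc -0.23 ± 0.25 and Oprm1 -0.38 ± 0.12, none of them past 2-fold in any library. Of 7 measured members 2 were called higher, against 1.64% of all genes, and 1 was called lower, against 11.6%. In the edgeR fit over all 10 libraries the log2 fold change was 2.80 (SE 0.50) for Penk, 1.47 (SE 0.35) for Oprd1 and -3.56 (SE 0.52) for Pdyn. The value for Pnoc is again not read.

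Scaling moved all of these ratios together. The median log2 ratio of all genes was 0.17 against unbound and 0.13 against input RNA with TMM scaling, and -0.01 and -0.09 by library size alone. Over all genes TMM scaling gave 478 higher and 1231 lower calls against unbound RNA, and library size alone 247 and 1477. Against input RNA the calls were 211 higher and 1495 lower with TMM scaling, and 70 and 1823 by library size alone. By library size alone Penk had 3.26 and Pdyn -3.13 against unbound RNA, and 2.50 and -3.77 against input RNA. Oprd1 had 1.12 and 1.17, and against input RNA it was then not called. Oprk1 against unbound RNA changed sign, to -0.06.

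**Figure D2:**
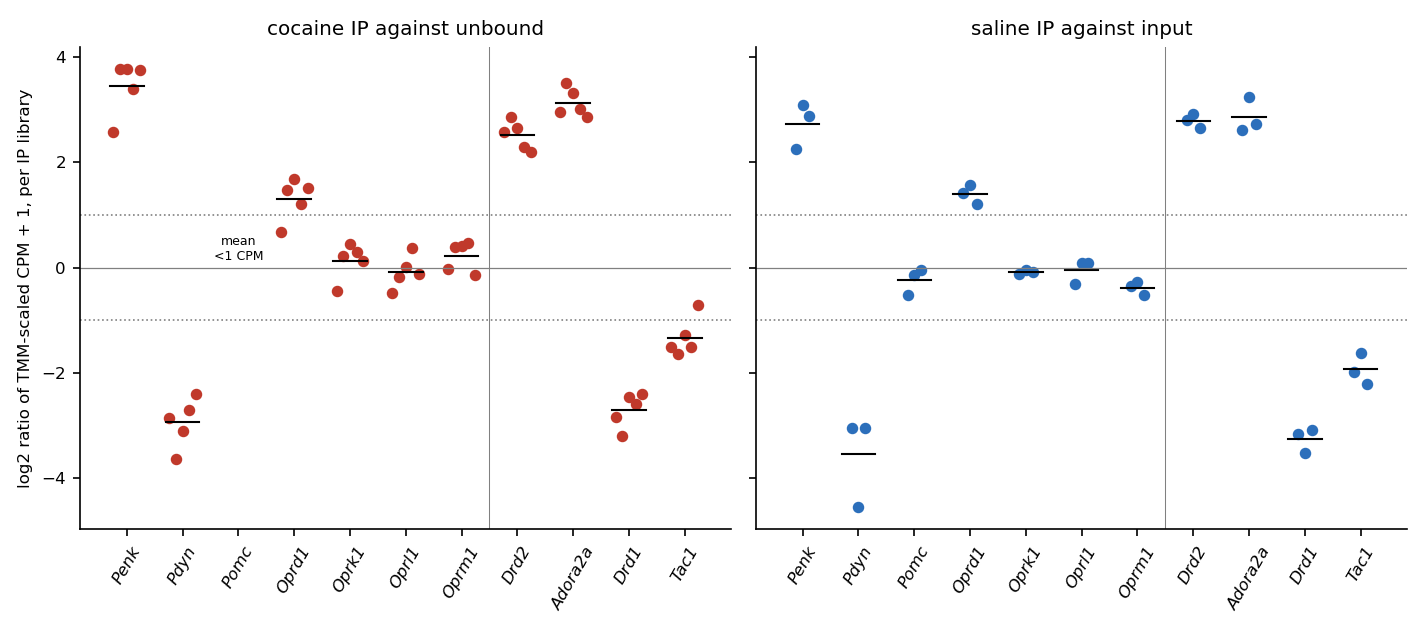
Log2 ratio of TMM-scaled CPM + 1 of each IP library (points; black bars, means) to unbound RNA (left, 5 cocaine IP libraries) or input RNA (right, 3 saline IP libraries), with 4 MSN marker genes right of the grey vertical line; dotted lines mark 2-fold. Penk lies with Drd2 and Adora2a, Pdyn with Drd1, and Oprd1 is the one receptor gene above 1 in most or all libraries.

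The MSN marker genes give a scale for these values. On plain CPM, Penk in cocaine IP libraries averaged 998% of its unbound value, beside 506% for Drd2 and 781% for the adenosine receptor gene Adora2a, both of indirect-pathway MSNs. In saline IP libraries Penk averaged 582% of its input value, beside 591% for Drd2 and 635% for Adora2a. Pdyn averaged 10.6% of its unbound value in cocaine IP libraries, beside 13.4% for Drd1 and 35.2% for the substance P precursor gene Tac1, both of direct-pathway MSNs. In saline IP libraries Pdyn averaged 7.12% of its input value, beside 8.76% for Drd1 and 22.1% for Tac1. The summed level of the 6 direct-pathway markers was 102 to 160 CPM in cocaine IP libraries and 114 to 139 CPM in saline IP libraries, against 699 CPM in unbound and 840 CPM in input RNA, and none of the 6 was at 0 in a whole group. The sum was 130, 102, 133, 121 and 160 CPM in cocaine IP 1 to 5, where Pdyn was lowest in number 2 and highest in number 5. It was 139, 114 and 114 CPM in saline IP 1, 2 and 4, where Pdyn was 8.55, 2.28 and 8.22 CPM. Over the 8 IP libraries Pdyn correlated with Drd1 at Pearson r = 0.80 (Spearman rho = 0.64). With Tac1 it correlated at r = 0.09 (rho = -0.05), with Adora2a at r = -0.95 (rho = -0.79) and with Drd2 at r = -0.73 (rho = -0.69). The part of direct-pathway RNA in the Pdyn values was not tested. Markers of GABA interneurons summed to 15.7 to 25.3 CPM in cocaine IP libraries and 13.8 to 22.9 CPM in saline IP libraries, against 287 CPM in unbound and 312 CPM in input RNA. Those of cholinergic interneurons, which also use the D2 receptor gene, summed to 19.3 to 50.9 CPM in cocaine IP and 18.6 to 38.7 CPM in saline IP libraries, against 51.3 CPM in unbound and 71.4 CPM in input RNA.

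Ratios between 2 members within a library do not depend on scaling. Penk had 533 to 2290 reads per Pdyn read in cocaine IP libraries and 537 to 3490 in saline IP libraries, against 10.9 (95% interval 10.3 to 11.5, counting error only) in unbound and 12.4 (11.8 to 13) in input RNA. Oprd1 had 1.37 to 1.91 reads per Oprk1 read in cocaine IP libraries and 1.43 to 1.77 in saline IP libraries, against 0.713 (0.638 to 0.796) in unbound and 0.563 (0.499 to 0.635) in input RNA. Oprd1 had 5.58 to 11.3 reads per Oprm1 read in cocaine IP libraries and 7.02 to 7.49 in saline IP libraries, against 3.41 (2.85 to 4.06) in unbound and 1.98 (1.67 to 2.33) in input RNA. Every IP library thus held more Oprd1 relative to the other receptors than did the unbound or input library. Oprk1 to Oprm1 showed no such gap between IP and unbound RNA, with 3.55 to 5.93 in cocaine IP libraries and 4.78 (4.03 to 5.67) in unbound RNA. The saline IP libraries, with 4.22 to 4.91, were all above the input value of 3.51 (3.01 to 4.09).

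Levels of different genes were compared per kb of exon (CPM per kb, over the union of a gene's exons in GENCODE). In cocaine IP libraries Penk had 4530 ± 1280 CPM per kb, Oprd1 14.6 ± 3.46, Oprk1 3.85 ± 0.781, Pdyn 2.50 ± 0.881, Oprl1 2.23 ± 0.530, Oprm1 0.992 ± 0.197, Pomc 0.621 ± 0.190 and Pnoc 0.0146 ± 0.0166 (SD, n = 5). The ranges of mean ± SD did not overlap between Penk and Oprd1 or between Oprd1 and Oprk1. Of the neighbours in this order, those of Oprk1 and Pdyn, Pdyn and Oprl1, and Oprm1 and Pomc overlapped. In saline IP libraries Penk had 3940 ± 1050 CPM per kb, Oprd1 12.9 ± 1.70, Oprk1 3.47 ± 0.0792, Oprl1 2.61 ± 0.389, Pdyn 2.20 ± 1.22, Pomc 1.04 ± 0.273 and Oprm1 0.892 ± 0.0926 (SD, n = 3). Here the ranges of mean ± SD overlapped for Oprl1 and Pdyn, Pdyn and Pomc, and Pomc and Oprm1. In unbound and input RNA Pdyn instead stood second, at 23.5 and 30.9 CPM per kb, after Penk at 454 and 677 and before Oprd1 at 6.41 and 5.55. The place of the receptors depends on the length used. Oprm1 has 31 annotated transcripts that together cover 8037 bases, and over its main transcript of 1695 bases it came to 4.70 ± 0.936 CPM per kb in cocaine IP and 4.23 ± 0.439 in saline IP libraries (SD, n = 5 and 3). Pdyn over its main transcript had 3.02 ± 1.07 CPM per kb in cocaine IP and 2.66 ± 1.48 in saline IP libraries, so that the 2 genes overlapped within their SDs. Over main transcripts Oprd1 still led the receptors in the IP libraries, but in unbound RNA it had 6.41 CPM per kb beside 7.73 for Oprk1, and in input RNA 5.55 beside 8.48.

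As a share of the 4 receptor genes per kb of exon, Oprd1 took 60.9% to 71.2% in cocaine IP libraries and 61.2% to 67.0% in saline IP libraries, against 45.9% in unbound and 38.4% in input RNA. Oprk1 took 17.8% ± 1.11 in cocaine IP and 17.5% ± 1.21 in saline IP libraries, against 28.3% in unbound and 30.0% in input RNA. Over main transcripts the Oprd1 share was 42.7% to 54.9% in cocaine IP and 44.3% to 48.9% in saline IP libraries, against 29.2% in unbound and 22.5% in input RNA, so the level of the share rested on the length and the direction did not. Among the precursors, Pdyn took 0.061% ± 0.0314 in cocaine IP and 0.0633% ± 0.0446 in saline IP libraries (SD, n = 5 and 3), against 4.92% in unbound and 4.35% in input RNA.

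**Figure D3:**
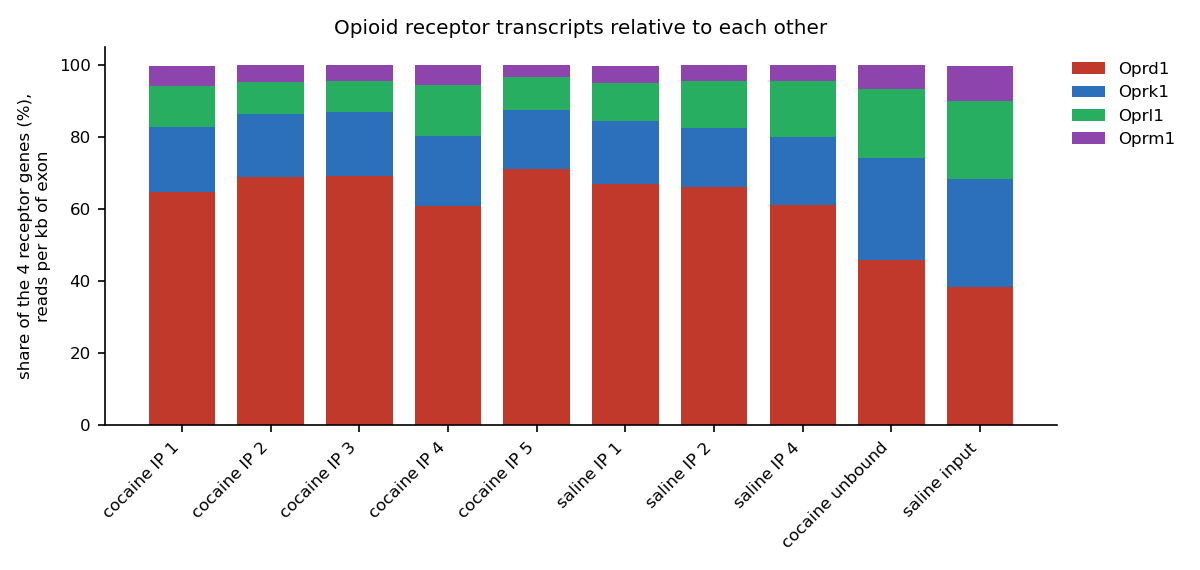
Stacked bars of the share of each opioid receptor gene in the sum of the 4, in reads per kb of exon, for every library. Oprd1 fills 60.9% to 71.2% in the 8 IP libraries, 45.9% in unbound and 38.4% in input RNA.

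The study was laid out to compare tagged neurons after cocaine and after saline intake. For the opioid genes no difference passed the test. The edgeR quasi-likelihood test called 0 of the 7 measured members and 0 of all 13800 genes (0%). At an unadjusted p of 0.05 edgeR took 0 members, against 295 genes or 2.14%. DESeq2 called 0 genes (363 unadjusted) and limma-voom called 0 (429 unadjusted). Pomc was among these 429, with an unadjusted p of 0.0298 in limma-voom (adjusted p = 0.9981). The CPM values of cocaine IP and saline IP libraries overlapped for all 8 members, and 2.35% of all genes had groups that did not overlap.

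Of the precursors, Penk averaged 7406 ± 2080 CPM after cocaine and 6443 ± 1710 CPM after saline (SD, n = 5 and 3), which gives 0.21 on the log2 scale (SE 0.26, 95% interval -0.36 to 0.78). Pdyn averaged 7.21 ± 2.54 CPM after cocaine and 6.35 ± 3.53 CPM after saline, or 0.19 in log2 fold change (SE 0.39, -0.67 to 1.05). Pomc averaged 0.819 ± 0.250 CPM after cocaine and 1.37 ± 0.360 CPM after saline, with a log2 fold change of -0.72 (SE 0.35, -1.49 to 0.04) and an unadjusted p of 0.0623 in edgeR, the smallest of the members. It rests on 117 reads in the 5 cocaine IP libraries and 119 reads in the 3 saline IP libraries. Pnoc, with 4 reads after cocaine and 9 after saline in all, was not tested.

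Of the receptors, Oprd1 averaged 58.7 ± 13.9 CPM after cocaine and 51.9 ± 6.84 CPM after saline, or 0.19 in log2 fold change (SE 0.20, -0.24 to 0.62). Oprk1 averaged 35.2 ± 7.15 CPM after cocaine and 31.8 ± 0.725 CPM after saline, with 0.16 (SE 0.17, -0.22 to 0.54). Its 3 saline IP libraries spanned 31.0 to 32.5 CPM and lay inside the range of the cocaine IP libraries, 23.6 to 42.8 CPM. Oprm1 averaged 7.97 ± 1.59 CPM after cocaine and 7.17 ± 0.744 CPM after saline, with 0.17 (SE 0.19, -0.25 to 0.59). Oprl1 averaged 8.37 ± 1.99 CPM after cocaine and 9.78 ± 1.46 CPM after saline, with -0.22 (SE 0.20, -0.66 to 0.23). All 7 adjusted p-values were 0.9998 in edgeR.

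The sign of several of these small values depended on the libraries used. Over 20 alternatives Penk ran from -0.11 to 0.40 and turned negative in 5, Pdyn ran from -0.58 to 0.43 and turned negative in 4, and Oprd1 and Oprk1 turned negative in 3 each, with -0.05 and -0.09 as their lowest values. Oprm1 stayed between 0.08 and 0.28, Oprl1 between -0.65 and -0.13, and Pomc, over 19 alternatives, between -1.08 and -0.57. The lowest Pomc value came without the libraries numbered 1. With lane as a covariate, only lane 6 holds both treatments, so that fit nearly repeats the one of lane 6 alone. For Penk these gave -0.109 and -0.112, and they are not separate evidence. Of the libraries left out singly, saline IP 1 turned Penk to -0.01 and saline IP 2 turned Pdyn to -0.21.

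**Figure D4:**
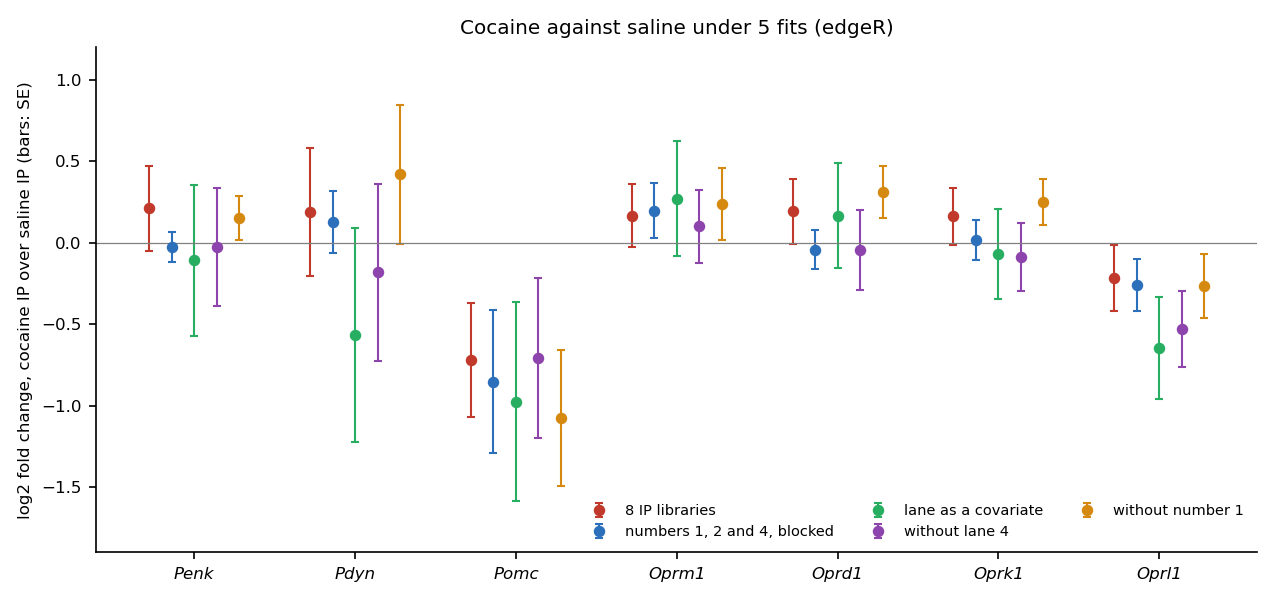
Log2 fold change of cocaine IP over saline IP libraries (points; bars, SE) for the 7 measured opioid genes in 5 edgeR fits: all 8 IP libraries, numbers 1, 2 and 4 with the number as a block, lane as a covariate, without lane 4, and without the libraries numbered 1. Penk, Oprd1 and Oprk1 stay near 0 on either side, and Pdyn spreads from -0.57 to 0.42. Pomc and Oprl1 are below 0 in each of the 5 fits. With lane as a covariate, the treatment estimate rests on the lane 6 libraries alone.

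Sequencing lane was uneven between the treatments and between the fractions. Unbound and input RNA were both in lane 1, which held no IP library. Lane and fraction therefore cannot be told apart in the ratios to unbound or input RNA. The labels put cocaine IP 3, 4 and 5 in lane 4, cocaine IP 1 and 2 and saline IP 4 in lane 6, and saline IP 1 and 2 in lane 7, so no lane 4 library followed saline. Within lane 6 alone (2 libraries after cocaine, 1 after saline) Penk had -0.11 (SE 0.46), Pdyn -0.58 (SE 0.45), Oprd1 0.16 (SE 0.36), Oprk1 -0.07 (SE 0.33) and Oprl1 -0.65 (SE 0.31). Among cocaine IP libraries, lane 4 over lane 6, Penk had a log2 difference of 0.36, Pdyn 0.56, Oprd1 0.36, Oprk1 0.38, Oprl1 0.47, Oprm1 0.09 and Pomc -0.05. Oprl1 was the one member whose lanes did not overlap, with 8.05 to 11.5 CPM in lane 4 and 6.17 to 7.42 CPM in lane 6 (edgeR adjusted p = 0.8623), beside 22.2% of all genes. In that comparison edgeR called 0 of 13746 genes (0%), with 744 (5.41%) and 0 members at an unadjusted p of 0.05, and DESeq2 called 7. Without cocaine IP 2 lane 6 holds cocaine IP 1 alone, assumed to vary like lane 4, and edgeR then called 407 genes including Penk (1.06, adjusted p = 0.03284), which compares that 1 library with lane 4. Without cocaine IP 1, when cocaine IP 2 alone stands for lane 6, the lane difference of Penk was -0.11, of Oprm1 -0.12 and of Pomc 0.47, and without cocaine IP 4 it was -0.04 for Oprm1 and 0.13 for Pomc. The part of lane in the values for cocaine was not tested beyond these fits.

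Libraries that share a number went together across treatments. Their deviations from the group means correlated at 0.709, 0.628 and 0.320 for numbers 1, 2 and 4 over 9616 genes. Penk was low in both libraries numbered 1, with 3986 CPM after cocaine and 4591 CPM after saline, and high in both numbered 2, with 8626 CPM after cocaine and 7964 CPM after saline. The 2 libraries numbered 4 had 6827 CPM after cocaine and 6774 CPM after saline. Within numbers the log2 difference of cocaine minus saline for Penk was -0.18, 0.13 and -0.01 for numbers 1, 2 and 4, and for Oprd1 it was -0.48, 0.13 and 0.24. Pdyn was low in both libraries numbered 2, with 3.76 CPM after cocaine and 2.28 CPM after saline. Those numbered 1 and 4 had 7.47 and 8.24 CPM after cocaine and 8.55 and 8.22 CPM after saline. Oligodendrocyte markers in numbers 1, 2 and 4 summed to 416, 201 and 270 CPM after cocaine and 448, 198 and 319 CPM after saline. Markers of pallial glutamatergic neurons did not follow the number alike, with 24.8 CPM after cocaine and 3.41 CPM after saline in number 2. The part of such RNA in the number differences was not tested. With the number as a block, Penk had a log2 fold change of -0.03 with an SE of 0.09. The same 6 libraries unpaired gave 0.01 with an SE of 0.30. In edgeR the block called 0 genes, with 903 at an unadjusted p of 0.05 against 141 for these 6 libraries unpaired.

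**Figure D5:**
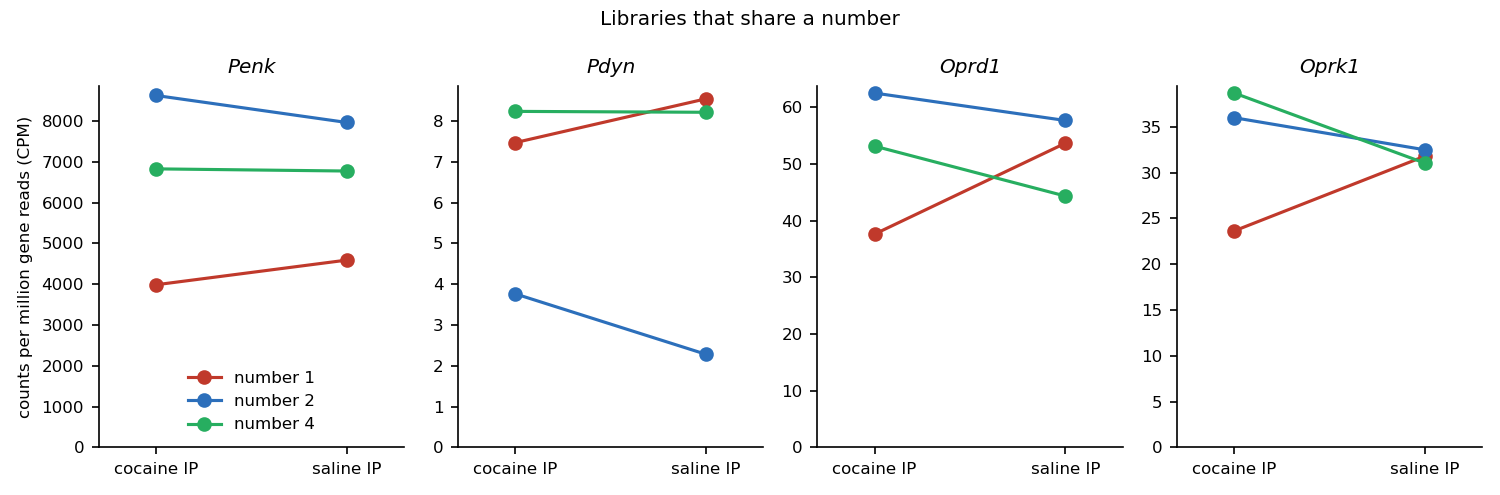
CPM (linear axes from 0) of Penk, Pdyn, Oprd1 and Oprk1 in cocaine IP and saline IP libraries that share the number 1, 2 or 4, joined by lines. The Penk lines keep their order and lie almost flat, with 3986 (cocaine) and 4591 (saline) CPM for number 1 and 8626 (cocaine) and 7964 (saline) CPM for number 2, whereas the Oprd1 and Oprk1 lines cross or converge.

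Across the 8 IP libraries, which share their pull-down and differ in depth and lane, the genes whose log2 levels were most like each member were looked up among 9265 genes (9266 for Pomc), as a description. Penk was most like Atp2b1 (Pearson r = 0.995, Spearman rho = 0.976), Dhrs7 (0.995, 0.976) and Serinc3 (0.994, 0.929), with r of 0.951 to 0.988 without cocaine IP 1 and saline IP 1. Pdyn was most like Strbp (r = 0.986, rho = 0.857), Rnf20 and Grk5, and without the libraries numbered 2 these fell to r of 0.800 to 0.890. Oprd1 was most like Rnf150 (r = 0.979, rho = 0.976), Mfsd6 and Bmpr1a, and Oprk1 was most like Spock1 (r = 0.977, rho = 0.976), Car12 and Ermp1. For Oprm1 the nearest gene was Mark1 (r = 0.977, rho = 0.952), for Oprl1 it was Crip2 (r = 0.951, rho = 0.881) and for Pomc it was Usp36 (r = 0.925, rho = 0.881).

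The genes that make, break down and carry the signal of opioid peptides were read from 6 lists. Of 8 genes for precursor processing, 1 was called higher in cocaine IP libraries against unbound RNA and 1 in saline IP libraries against input RNA, beside 3.78% and 1.64% of all genes, both times Scg5, which encodes a chaperone of the convertase made from Pcsk2. Scg5 averaged 171 ± 41.8 CPM in cocaine IP and 162 ± 30.2 CPM in saline IP libraries (SD, n = 5 and 3), against 61.3 CPM in unbound and 74.9 CPM in input RNA, with log2 ratios of 1.62 ± 0.40 to unbound and 1.32 ± 0.28 to input RNA. The median log2 ratio of the list was 0.73 to unbound RNA, beside 0.17 for all genes, and 0.25 to input RNA, beside 0.13. Of 8 measured genes for peptide breakdown none was called. Mme, which encodes neprilysin, an enkephalin-degrading protease, had log2 ratios of 0.67 ± 0.24 to unbound and 0.996 ± 0.27 to input RNA. The aminopeptidase gene Npepps had 0.29 ± 0.21 to unbound and 0.17 ± 0.13 to input RNA. The list median was 0.75 to unbound and 0.32 to input RNA.

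Of 5 alpha subunit genes of inhibitory G proteins, none was called against unbound RNA, where Gnao1 had 0.76 ± 0.10 and Gnai1 -1.29 ± 0.23. Against input RNA 2 were called lower, beside 11.6% of all genes, Gnai1 at -1.45 ± 0.07 and Gnai2 at -1.16 ± 0.14. Of 15 genes that regulate opioid receptors or their G proteins, 2 were called higher and 1 lower against unbound RNA, beside 3.78% and 9.74% of all genes. Against input RNA 1 was higher and 1 lower, beside 1.64% and 11.6% of all genes, so that for the lower calls the share was near that of all genes. Gnb5, the beta subunit that partners a class of RGS proteins, was higher in both, at 1.27 ± 0.09 against unbound and 1.15 ± 0.07 against input RNA, and Rgs14 was higher against unbound RNA at 1.54 ± 0.18. Adrbk2, a receptor kinase gene, was lower in both, with 2.89 ± 1.38 CPM in cocaine IP and 3.24 ± 1.62 CPM in saline IP libraries, against 43.3 CPM in unbound and 27.5 CPM in input RNA. Of 7 measured effector genes 2 were lower in both comparisons, beside 9.74% of all genes against unbound and 11.6% against input RNA. These were Kcnj3 at -2.31 ± 0.20 against unbound and -1.70 ± 0.40 against input RNA, and Kcnj6 at -2.49 ± 0.26 against unbound and -2.34 ± 0.36 against input RNA. Kcnj6 averaged only 0.485 ± 0.24 CPM in cocaine IP and 0.261 ± 0.315 CPM in saline IP libraries, against 8.19 CPM in unbound and 5.98 CPM in input RNA. It reached the minimum mean of 1 CPM only through the unbound or input library, so its lower call was fixed in advance. Kcnj3 and Kcnj6 encode subunits of potassium channels that opioid receptors open through G proteins. Among 5 other genes with opioid in their name or binding none was called, and Ogfrl1 had -0.38 ± 0.10 against unbound and 0.14 ± 0.17 against input RNA, and Opcml -0.24 ± 0.31 and -0.04 ± 0.28.

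After cocaine against saline 0 genes of these 6 lists were called by edgeR. In the processing list 7 of 8 fold changes were positive, with a median of 0.19 beside 0.01 for all 13800 genes, and Cpe and Pcsk2, the carboxypeptidase and convertase genes, had 0.23 (SE 0.27) and 0.15 (SE 0.23). The same list had a median of 0.36 in lane 4 over lane 6 among cocaine IP libraries. The effector list had a median of 0.17 for cocaine over saline and 0.22 for lane 4 over lane 6, and the other opioid-named genes had 0.08 and 0.28. The medians for cocaine over saline were 0.05 for breakdown, -0.05 for the alpha subunits and -0.02 for the regulators. Of the most abundant members of these lists, Mme had 0.05 (SE 0.16) and Npepps 0.08 (SE 0.13), Gnao1 -0.05 (SE 0.10), Rgs7bp -0.04 (SE 0.14) and Rgs4 -0.02 (SE 0.12), Adcy5 0.0003 (SE 0.21) and Adcy1 0.15 (SE 0.19), and Ogfrl1 0.08 (SE 0.11) and Opcml 0.12 (SE 0.18). Gnai1 had 119 ± 20.3 CPM after cocaine and 92.2 ± 6.85 CPM after saline, or 0.38 in log2 fold change (SE 0.14, edgeR adjusted p = 0.9998).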

How the data were processed

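The authors deposited raw read counts per gene symbol for each library. The submitters' processing notes name STAR 2.0.0e, HTSeq and build mm10. The HTSeq version, annotation and strand setting were not given in the sources used here. Groups and replicate numbers came from titles and lanes from descriptions. The 6 special counter rows stayed out of library sizes. No library repeated another.

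Cocaine IP was set against saline IP with the two-sided quasi-likelihood test of edgeR 4.0.16 (R 4.3.3), with TMM scaling, filterByExpr and Benjamini-Hochberg adjustment over all genes. DESeq2 1.42.0 and limma 3.58.1 (voom) were alternatives. IP libraries were set against the single unbound or input library as log2 ratios, since no replicate of those was given. Intervals are 95%; those of read ratios cover counting error only, and those of fold changes come from the edgeR fit and include the spread between libraries. Numbers were taken to pair samples from their correlations, which were 0.635, 0.517 and 0.229 over all 13800 genes (the meaning of a number is not stated in the labels). The test of cocaine against saline, the lane test and the ratios to input RNA were also run on simulated data. The simulated counts had the same spread for every gene and no differences between numbers, and no result here rests on them. The ratios to unbound RNA and the other fits were not simulated. Positions and coding sequences are from GENCODE M21 on GRCm38, the assembly of mm10.

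The opioid genes, the pathway and marker lists and the tests were chosen with earlier results of these data known. Of each other list the text names up to 4 called members per comparison, or the 2 with the highest level where none was called.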

Additional observations from a re-analysis of the deposited data

Results flagged for a closer look

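Among 60 opioid-related genes looked at in the 5 cocaine IP libraries, 3 had 1 library far from the others by Dixon's test, and chance alone flags about 1 in 20 such groups. The peptidase gene Prep had 15 CPM in cocaine IP 3, against 16.7 to 17 CPM in the other 4. The G protein subunit gene Gnaz had 24 CPM in cocaine IP 5, against 32.6 to 36 CPM in the other 4, and Arrb2, which encodes a beta-arrestin, had 27.3 CPM in cocaine IP 5, against 17.1 to 19.3 CPM. None of the 8 opioid precursor and receptor genes met this limit.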

How the results depend on the processing

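For cocaine against saline, 0 genes were called under each alternative run, including the fit with the replicate number as a block (0 called, smallest adjusted p = 0.0599 in edgeR), and no opioid gene changed its call there. For lane 4 against lane 6 the count was 7 with DESeq2, 33 with no filter on low counts and 0 to 407 with 1 library left out. The 407 came without cocaine IP 2, which leaves cocaine IP 1 as the only lane 6 library, assumed to vary like lane 4. Against input RNA, 1 opioid gene rather than 2 was called higher by library size alone or with a 3-fold limit, which lose Oprd1. Against unbound RNA, 2 rather than 1 were called higher with a 1.5-fold limit, in the edgeR fit over 10 libraries, and without the libraries numbered 1 (chosen after seeing the data), which add Oprd1; with 1 library left out the count was 1 to 2. The edgeR fit also called Pnoc lower, but Pnoc passed its filter only through unbound and input RNA, so that call is not read as a result. Oprl1 turned to 0.02 against unbound RNA without cocaine IP 1 and to 0.09 against input RNA without saline IP 1. The counts in the other settings stayed within 1.5 times the reported ones. Single unbound and input libraries, sequenced in a lane without IP libraries, limit what can be read from these values. So do few reads for Pomc and Pnoc and overlapping genes at Penk and Oprm1.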
